A study of Sus scrofa with 21 samples.

Results

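CatSper is the cation channel of sperm, and 9 of the 25880 pig genes with deposited counts were taken as its subunits because their Ensembl identifiers carry the symbols CATSPER1, CATSPER2, CATSPER3, CATSPER4, CATSPERB, CATSPERD, CATSPERG, CATSPERZ and EFCAB9. For 8 of these genes an identifier table gives the symbol, and for CATSPERZ (ENSSSCG00000013027) it came from the gene tables of the study. All 9 were measured in every library, and all 9 passed the filter on low counts in every comparison.

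The channel sits in the membrane of the sperm tail and lets calcium enter the flagellum, which changes the tail beat from a steady wave to the deep, asymmetric strokes known as hyperactivated motility. CATSPER1, CATSPER2, CATSPER3 and CATSPER4 each supply a part of the pore, CATSPERB, CATSPERD and CATSPERG are membrane-anchored accessory subunits with large outer domains, and CATSPERZ and EFCAB9 form a pair on the inner side, where EFCAB9 binds calcium. The genes are expressed in male germ cells from meiosis onward, and male mice without a pore subunit are infertile because their sperm do not hyperactivate.

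RNA from whole testis of purebred Landrace and Duroc boars of an artificial insemination station was sequenced, with 1 library per boar, and 13 Landrace and 8 Duroc libraries were used. In contrast (i), 4 Landrace boars whose sperm showed low hyperactivity on the day of ejaculation (L1, L2, L3 and L4) were compared with 4 boars with high hyperactivity (L5, L6, L7 and L8). In contrast (iii), 4 Landrace boars whose hyperactivity changed little from day 0 to day 4, that is over 96 h of storage (L2, L9, L10 and L12), were compared with 3 boars whose hyperactivity changed much (L7, L13 and L15), so that L2 and L7 are in both contrasts. The Duroc boars are labelled High (D1, D2, D3, D4 and D5) or Low (D6, D7 and D9). The testes were frozen after slaughter, and the age of each boar at slaughter is not given in the sources used here. Hyperactivity was scored in ejaculates of the same boars, not in the sequenced tissue. Each library is a separate boar, chosen for an extreme phenotype rather than at random.

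The libraries held 41358671 to 125576407 counts. In whole tissue, fewer cells of a type and less RNA per cell cannot be told apart. Marker genes of meiotic and later germ cells were abundant, with summed levels of 1225 to 2453 CPM (counts scaled to library size) for 6 spermatocyte genes and 5736 to 14019 CPM for 7 elongating spermatid genes, whereas 5 macrophage genes summed to 2.32 to 13.1 CPM. Of the marker genes found, AMH of Sertoli cells had 0 counts in all 21 libraries. Boar L13 stood apart, with the lowest elongating spermatid sum (5736 CPM) and the highest Sertoli sum (492.9 CPM, against a median of 218 CPM over the 21 boars). Matched by name, 7 of the 8 Duroc boars, all but D5, have the opposite hyperactivity group in the table of boars to that in their labels, so the Duroc groups are called labelled High and labelled Low here. No pair of boars of the same group had counts that agreed within sampling noise (34 pairs, chi-square per degree of freedom 48.8 to 306).

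In the RefSeq annotation of Sscrofa11.1, the build used by the authors, 4 of the 9 genes lie on chromosome 2. These are CATSPER1 at chr2:6312906-6321690, CATSPERZ at chr2:7813296-7817327, CATSPERD at chr2:73207458-73266158 and CATSPER3 at chr2:137139743-137175305. CATSPER1 and CATSPERZ are 1491606 bases apart. Chromosome 6 holds CATSPERG at chr6:47252307-47282833 and CATSPER4 at chr6:83607607-83627860. CATSPER2 is at chr1:127814349-127831023, CATSPERB at chr7:113201785-113293597 and EFCAB9 at chr16:51987090-51996019.

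Levels below are CPM scaled over the 21 libraries with TMM factors (trimmed mean of M-values), and since CPM is not scaled to transcript length, levels were not compared between genes. Among the pore genes, CATSPER1 varied most relative to its mean, from 30.03 CPM in L13 to 111 CPM in L3 with a median of 57.0 CPM over the 21 boars, a coefficient of variation (CV, the SD as a percent of the mean) of 35.7%. CATSPER2 varied least of the 9 genes, from 154 CPM in D1 to 247 CPM in L8 with a median of 188 CPM and a CV of 11.14%. CATSPER3 ranged from 14.2 CPM in D7 to 37.7 CPM in L15, with a median of 27.4 CPM and a CV of 26.7%. CATSPER4 ranged from 22.6 CPM in L7 to 49.7 CPM in L3, with a median of 34.2 CPM and a CV of 21.8%.

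Of the membrane-anchored accessory subunits, CATSPERB ranged from 144 CPM in L3 to 352 CPM in L8 (median 205 CPM, CV 25.5%). CATSPERG ranged from 127 CPM in L13 to 367 CPM in D9 (median 258 CPM, CV 28.4%). CATSPERD was the steadiest of the 3, from 59.4 CPM in L6 to 98.3 CPM in L2 (median 76.0 CPM, CV 16.6%). The inner pair differed in spread as well, for CATSPERZ had the largest CV of all 9 genes at 40.5%, from 8.53 CPM in L6 to 35.2 CPM in L1 (median 20.3 CPM), whereas EFCAB9 ranged from 78.0 CPM in L3 to 188 CPM in L8 (median 109 CPM, CV 22.1%). The boar with the highest CATSPER1 and CATSPER4, L3, had the lowest CATSPERB and EFCAB9, and L8, with the highest CATSPERB, CATSPER2 and EFCAB9, had the second lowest CATSPER1. The lowest count of any of the 9 genes in any library was 609, for CATSPERZ in L6.

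**Figure D1:**
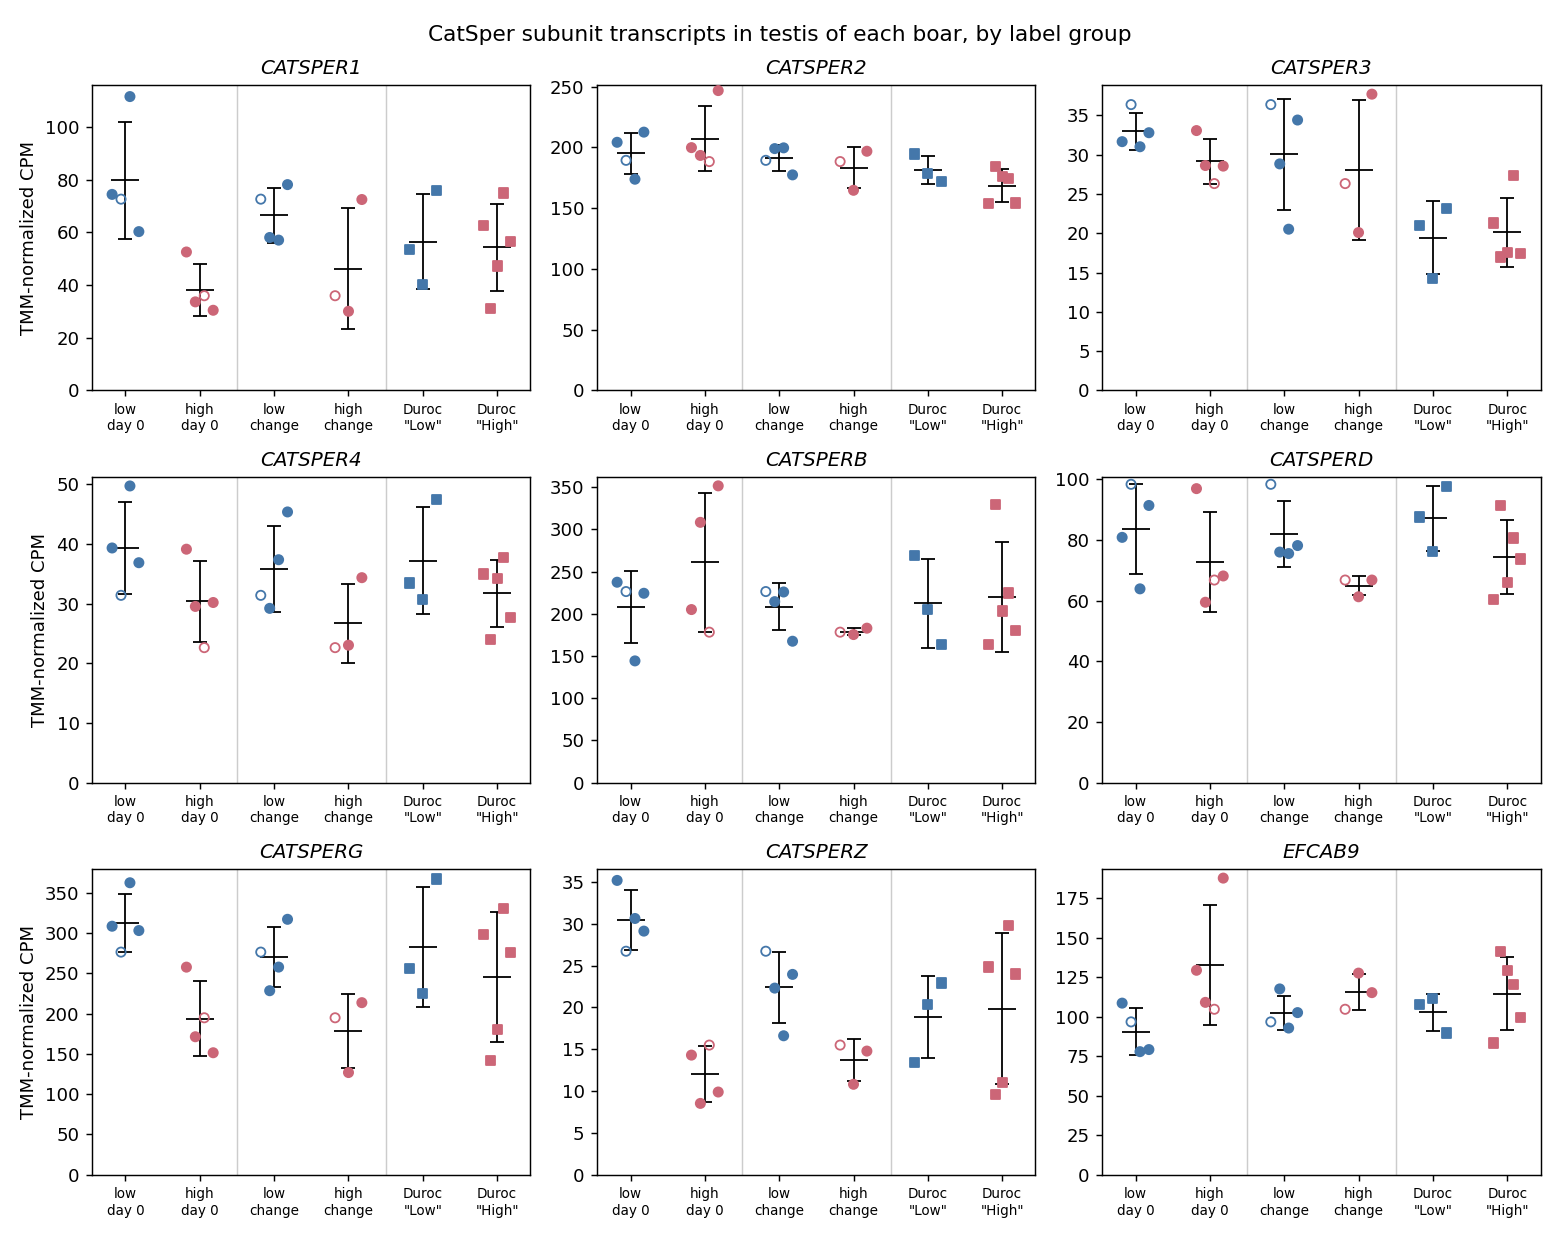
TMM-normalized CPM of each of the 9 CatSper genes (linear axis from 0), 1 point per boar in 6 label groups, with bars for the group mean ± SD, circles for Landrace, squares for Duroc, blue for low, red for high, and open circles for L2 and L7, which appear in both Landrace contrasts. The points of CATSPERZ, CATSPER1 and CATSPERG do not overlap between the low and high boars of day 0, while all values of CATSPER2 lie between 154 and 247 CPM.

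Contrast (i) asks whether testis levels differed between Landrace boars with high and low hyperactivity at ejaculation. The pore gene CATSPER1, the accessory gene CATSPERG and the inner gene CATSPERZ were lower in the high group, and no CatSper gene was higher, in the quasi-likelihood test of edgeR, with p-values adjusted over all 12979 genes tested (Benjamini-Hochberg) and a threshold of 0.05. The 3 lower genes were 3 of 9, where 15.8% of all tested genes were lower, and the 0 of 9 that were higher compare with 4.82% of all tested genes. Of all genes called, 76.7% were lower by edgeR and 62.8% by DESeq2 with its own scaling, which called CATSPER1, CATSPERG and CATSPERZ lower and EFCAB9 higher. At an unadjusted p under 0.05, 4 of 9 passed against 41.7% of all tested genes. The levels of the groups did not overlap for 3 of 9 genes, against 28.1% of all tested genes. The median log2 fold change of high over low was -0.18 over the 9 genes and 0.03 over all tested genes. The paper describes most differentially expressed genes of this contrast as up-regulated in the high group, DNLZ the most. Its own table lists lower mean counts of DNLZ, and of PRM1, in the high than in the low group. Directions here follow the deposited labels, and the cause of this conflict was not tested.

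CATSPERZ, the inner subunit that partners EFCAB9, showed the largest difference. It was at 35.2, 26.7, 30.6 and 29.1 CPM in the low boars L1, L2, L3 and L4, and at 14.3, 8.53, 15.5 and 9.89 CPM in the high boars L5, L6, L7 and L8. Every high boar was below every low boar. The means were 12.1 ± 3.37 CPM (SD, n = 4) in high boars against 30.4 ± 3.56 CPM (SD, n = 4) in low boars, for a high-over-low log2 change of -1.31 (standard error, SE, 0.22, edgeR adjusted p = 0.0208), and the gene ranked 14 by p among all tested genes. The two-sided exact permutation test over boars gave p = 0.0286, the smallest that 4 boars against 4 allow.

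CATSPER1, the pore subunit with a long histidine-rich inner end, was at 74.4, 72.6, 111 and 60.3 CPM in L1, L2, L3 and L4, and at 52.5, 33.6, 35.9 and 30.4 CPM in L5, L6, L7 and L8. The lowest of the low boars, L4, was above the highest of the high boars, L5. The means of 38.1 ± 9.86 CPM (SD, n = 4) in high boars against 79.7 ± 22.1 CPM (SD, n = 4) in low boars gave a log2 fold change of -1.04 (SE 0.22, edgeR adjusted p = 0.0208, two-sided exact permutation p = 0.0286). CATSPERG, an accessory subunit with a large outer domain, was at 308, 276, 362 and 303 CPM in L1, L2, L3 and L4, and at 258, 171, 195 and 151 CPM in L5, L6, L7 and L8. The groups were apart, though L5 and L2 lay close to each other. The log2 fold change was -0.66 (SE 0.17, edgeR adjusted p = 0.0267, two-sided exact permutation p = 0.0286), from 194 ± 46.1 CPM (SD, n = 4) in the high to 313 ± 36.1 CPM (SD, n = 4) in the low group.

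EFCAB9, the calcium-binding partner of CATSPERZ, lay on the other side of 0 without passing the test. It was at 108.7, 96.8, 78.0 and 79.3 CPM in L1, L2, L3 and L4, and at 129.5, 109.2, 104.8 and 187.9 CPM in L5, L6, L7 and L8. The lowest high boar, L7, lay below the highest low boar, L1, and the other high boars lay above all low boars. The log2 fold change was 0.56 (SE 0.19, edgeR adjusted p = 0.0540, two-sided exact permutation p = 0.0571), from 133 ± 38.2 CPM (SD, n = 4) in the high to 90.7 ± 14.8 CPM (SD, n = 4) in the low group. Its adjusted p ran from 0.0234 to 0.0772 over 8 alternative fits, of which 6 put it under 0.05, and from 0.0411 to 0.178 without each boar in turn, where 1 of 8 fits did so and the log2 fold change ran from 0.37 to 0.65.

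The other 5 genes overlapped between the groups. The pore genes CATSPER2, CATSPER3 and CATSPER4 had log2 fold changes of 0.10, -0.16 and -0.35, with adjusted p-values of 0.552, 0.391 and 0.174 from edgeR. The accessory genes CATSPERB and CATSPERD had log2 fold changes of 0.33 and -0.18, with adjusted p-values of 0.257 and 0.479. CATSPERB was uneven within both groups, at 237, 226, 144 and 224 CPM in L1, L2, L3 and L4 and at 205, 308, 178 and 352 CPM in L5, L6, L7 and L8. Two-sided exact permutation p-values for these 5 genes ran from 0.114 to 0.571. With each boar left out in turn, none of the 5 passed. Over those fits the log2 fold change ran from 0.15 to 0.47 for CATSPERB and from -0.34 to -0.09 for CATSPERD. It ran from 0.005 to 0.14 for CATSPER2, from -0.23 to -0.12 for CATSPER3 and from -0.49 to -0.24 for CATSPER4.

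The calls in contrast (i) rested on few boars. This held beyond the CatSper genes, for 1 to 3764 of all tested genes were called without each boar in turn. Without L3, 0 of the 9 genes passed, with an adjusted p of 0.0504 for CATSPERZ and CATSPER1, and without L6, 0 of the 9 passed, with an adjusted p of 0.0532 for the same genes. Without L1, 2 passed, because CATSPERG had an adjusted p of 0.0557. Without each boar in turn, the log2 fold change stayed between -1.47 and -1.17 for CATSPERZ, between -1.23 and -0.88 for CATSPER1 and between -0.83 and -0.55 for CATSPERG.

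**Figure D2:**
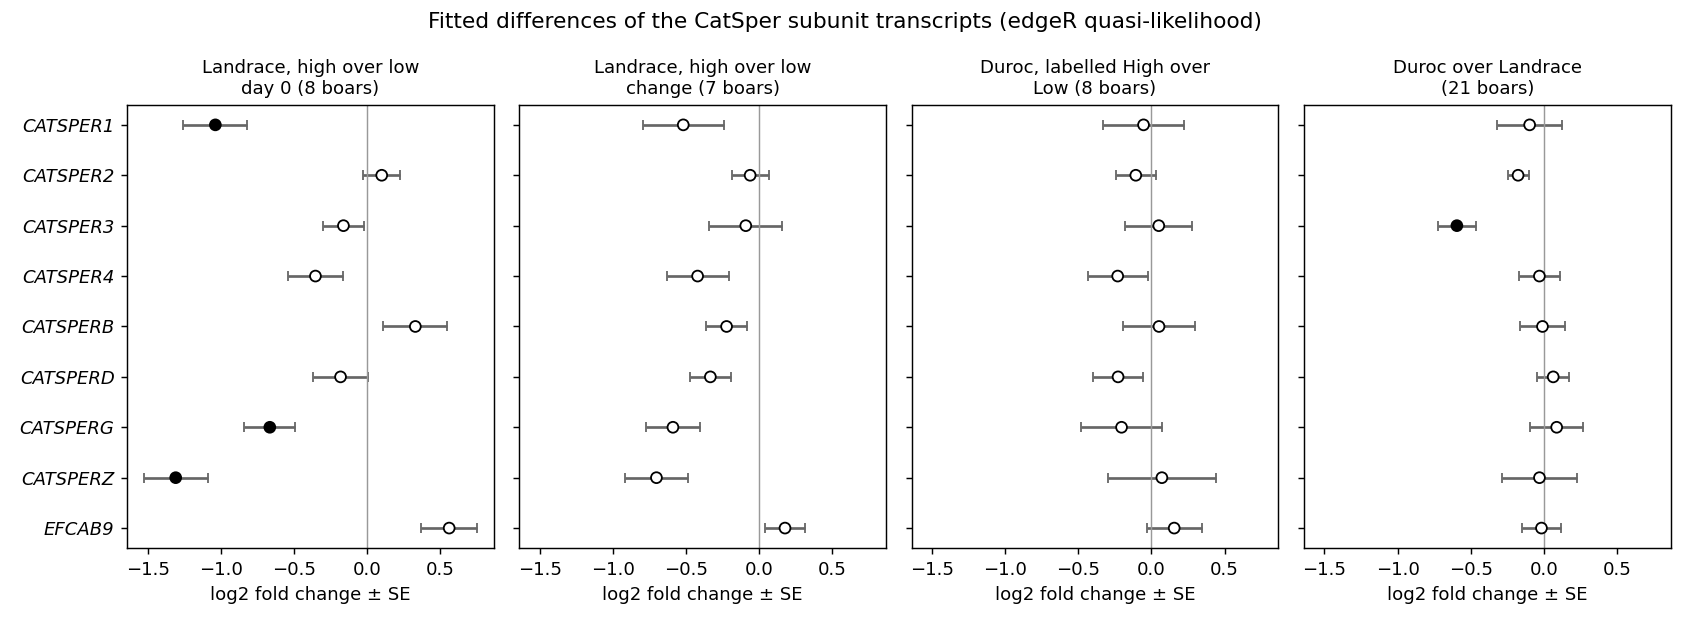
Log2 fold change of each CatSper gene with its SE in contrast (i) and contrast (iii) (high over low), in Duroc by labels (labelled High over labelled Low) and in Duroc over Landrace, filled where the adjusted p from edgeR was under 0.05. The filled points are CATSPERZ at -1.31, CATSPER1 at -1.04 and CATSPERG at -0.66 in contrast (i) and CATSPER3 at -0.59 between the breeds.

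Other measures moved with the groups of contrast (i). The share of alignment records set aside by HTSeq as not unique was 5.83 to 7.20% in the high and 7.53 to 7.92% in the low boars, which did not overlap. The high libraries were deeper by median (82926536 against 67344798 counts), but the ranges overlapped (64052547 to 97059970 against 53644587 to 77217140 counts). Of 7 elongating spermatid genes, 4 were lower in the high boars and 0 higher, namely the protamine PRM1, the transition protein TNP2, the outer dense fibre gene ODF2 and the kinase gene TSSK6, with a list median of -0.65, where 15.8% of all tested genes were lower and 4.82% higher. The other 3, TNP1, ODF1 and PRM2, did not pass and had log2 fold changes of 0.21, 0.07 and -0.21. The summed level of the list was 10080 to 13495 CPM in the high and 10380 to 14019 CPM in the low boars. Of this, TNP1 alone was 6041 to 7893 CPM in the high and 4484 to 6892 CPM in the low boars. ACR, the acrosin gene, was the 1 of 6 tested round spermatid genes that was lower. In that list 3 genes had log2 fold changes above 0 and 3 below, with a list median of -0.003. At an unadjusted p under 0.05 there were 4 of the 6, among them ACRV1 at 0.46 and SPACA1 at 0.39. Of 3 tested peritubular and smooth muscle genes, MYH11 and DES were lower, and the list summed to 14.2 to 50.6 CPM in the high and 40.1 to 93.2 CPM in the low boars. None of the 6 spermatocyte, 5 tested spermatogonial, 5 tested Sertoli, 5 Leydig, 2 endothelial and 2 tested macrophage genes passed by edgeR, and 4, 0, 1, 0, 1 and 0 of them had an unadjusted p under 0.05, against 41.7% of all tested genes. The summed spermatocyte genes ran from 1580 to 2453 CPM in the high and from 1277 to 1611 CPM in the low boars. The part of these measures in the CatSper differences was not tested.

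Contrast (iii) asks the same of Landrace boars whose sperm gained little or much hyperactivity in storage. No CatSper gene passed the test by edgeR's quasi-likelihood fit, nor did any of the 12824 genes tested (0% lower), where the smallest adjusted p was 0.240. At an unadjusted p under 0.05, 3 of 9 CatSper genes passed against 19.8% of all tested genes, and DESeq2 and the likelihood ratio test also called 0 of 9. The same 3 genes, CATSPERZ, CATSPERG and CATSPERD, had groups that did not overlap, against 16.2% of all tested genes. The median log2 fold change was -0.33 over the 9 genes and 0.00 over all tested genes.

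CATSPERZ was at 26.7, 22.3, 16.6 and 24.0 CPM in the low change boars L2, L9, L10 and L12, and at 15.5, 10.8 and 14.8 CPM in the high change boars L7, L13 and L15. The log2 fold change was -0.70 (SE 0.21, edgeR adjusted p = 0.240, two-sided exact permutation p = 0.0571), and L10 lay just above the highest high boar, L7. CATSPERG was at 276, 228, 258 and 317 CPM in L2, L9, L10 and L12, and at 195, 127 and 214 CPM in L7, L13 and L15. Its log2 fold change was -0.59 (SE 0.19, edgeR adjusted p = 0.240, two-sided exact permutation p = 0.0286, the smallest that 3 boars against 4 allow). L13 was the lowest of the 7 boars for this gene.

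CATSPERD, an accessory subunit, was at 98.3, 76.0, 75.5 and 78.1 CPM in L2, L9, L10 and L12, and at 66.8, 61.2 and 66.8 CPM in L7, L13 and L15. The log2 fold change was -0.33 (SE 0.14, edgeR adjusted p = 0.245, two-sided exact permutation p = 0.0286). CATSPER1 overlapped between the groups, at 72.6, 58.0, 57.0 and 78.1 CPM in L2, L9, L10 and L12 and at 35.9, 30.03 and 72.4 CPM in L7, L13 and L15, with a log2 fold change of -0.52 (SE 0.28, edgeR adjusted p = 0.301). Without each boar in turn this value ran from -1.01, without L15, to -0.27, without L13, and that of CATSPERG from -0.74, without L15, to -0.38, without L13. L7 and L13 were the low values of CATSPER1, and L15 lay within the range of the low change boars. The other 5 genes had log2 fold changes of -0.42 for CATSPER4, -0.22 for CATSPERB, -0.09 for CATSPER3, -0.06 for CATSPER2 and 0.18 for EFCAB9, with adjusted p-values from 0.284 to 0.841 in edgeR.

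Both Landrace contrasts share L2 and L7, so their fold changes are not independent. Without both boars, the log2 fold changes in contrast (i) were called for 3 of 9 genes and those in contrast (iii) for 0 of 9. The summed elongating spermatid genes were 11137 to 13799 CPM in the low change and 5736 to 11273 CPM in the high change boars. Of these genes 0 of 7 passed by edgeR, and 5 of 7 had an unadjusted p under 0.05, against 19.8% of all tested genes. Their part in the CatSper values of contrast (iii) was not tested.

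In the Duroc boars, the values of labelled High and labelled Low overlapped for all 9 CatSper genes. Of all tested genes, 1.41% had groups that did not overlap. No CatSper gene passed by edgeR's quasi-likelihood test, by the likelihood ratio test or by DESeq2, and none of the 13043 genes tested did so by edgeR (0% lower). At an unadjusted p under 0.05, 0 of 9 passed against 1.21% of all tested genes. Log2 fold changes of labelled High over labelled Low ran from -0.23 for CATSPER4 and CATSPERD to 0.16 for EFCAB9, with a median of -0.05 over the 9 genes and 0.04 over all tested genes.

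CATSPERZ was at 24.8, 9.60, 11.06, 29.8 and 24.0 CPM in the labelled High boars D1, D2, D3, D4 and D5, and at 13.4, 20.3 and 22.9 CPM in the labelled Low boars D6, D7 and D9. The labelled High boars held both the lowest and the highest values, and the log2 fold change was 0.07 (SE 0.37). CATSPER1 was at 62.4, 31.0, 47.2, 74.9 and 56.5 CPM in D1, D2, D3, D4 and D5, and at 53.5, 40.2 and 75.8 CPM in D6, D7 and D9, with a log2 fold change of -0.05 (SE 0.28). CATSPERG was at 298, 142, 180, 331 and 275 CPM in D1, D2, D3, D4 and D5 and at 256, 225 and 367 CPM in D6, D7 and D9, with a log2 fold change of -0.20 (SE 0.28). D2 was the lowest Duroc boar for all 3 genes. Exchanging the groups of the 7 boars with conflicting records would turn the sign of the fit without D5 and leave its size, and that fit called 0 of 9 genes.

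The difference between the breeds in the high-low effect was tested as an interaction over the 8 boars of contrast (i) and the 8 Duroc boars. No CatSper gene passed by edgeR's quasi-likelihood or likelihood ratio test, nor did any of the 12920 genes by the quasi-likelihood test (0% higher). At an unadjusted p under 0.05, 2 of 9 CatSper genes passed, against 15.1% of all tested genes. These were CATSPERZ, with an effect in Duroc minus that in Landrace of 1.36 on the log2 scale (SE 0.47, edgeR adjusted p = 0.329), and CATSPER1, with 0.97 (SE 0.39, edgeR adjusted p = 0.329). With the Duroc groups as labelled, the effects called in Landrace were therefore not shown to differ from those in Duroc. The sign of the Duroc effect depends on which record of the groups is right, and an interaction with the groups exchanged was not tested.

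Between the breeds, CATSPER3, a pore subunit, was lower in Duroc. It was at 21.3, 17.0, 17.6, 27.4, 17.4, 20.99, 14.2 and 23.1 CPM in D1, D2, D3, D4, D5, D6, D7 and D9. In the 13 Landrace boars the lowest value was 20.1, the median 31.0 and the highest 37.7 CPM. Only L10 and L13, the lowest Landrace boars at 20.5 and 20.1 CPM, and L7 at 26.3 CPM lay below the highest Duroc boar, D4, at 27.4 CPM. The means were 19.9 ± 4.17 CPM (SD, n = 8) in Duroc and 29.99 ± 5.38 CPM (SD, n = 13) in Landrace, a log2 fold change of -0.59 (SE 0.13, edgeR adjusted p = 0.0113 over 12835 genes, rank 150 by p, two-sided exact permutation p = 0.000339).

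CATSPER3 was the 1 of 9 CatSper genes that was lower in Duroc, where 1.48% of all tested genes were lower. At an unadjusted p under 0.05, 2 of 9 passed against 12.2% of all tested genes, the other being CATSPER2 with a log2 fold change of -0.18 (SE 0.07, edgeR adjusted p = 0.271). CATSPER2 was at 154 to 194 CPM in Duroc and 165 to 247 CPM in Landrace, and the ranges overlapped. The other 7 genes had log2 fold changes between -0.10 for CATSPER1 and 0.09 for CATSPERG, and an adjusted p of 0.999 each from edgeR.

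Leaving out each of the 21 boars in turn kept the log2 fold change of CATSPER3 between -0.67 and -0.54, and its adjusted p between 0.00314 and 0.0289 in edgeR. With the Landrace boars limited to the 5 without a day 0 label, the log2 fold change was -0.51 and the adjusted p 0.361, and over this and 7 other alternative fits its adjusted p ran from 0.000366 to 0.361. Of the marker genes tested between the breeds, KIT was the 1 of 5 tested spermatogonial genes that was lower in Duroc. The other 4 had log2 fold changes above 0. GATA4 was the 1 of 5 tested Sertoli genes that was higher, in a list with 3 genes above 0 and 2 below. By edgeR 0 of 6 spermatocyte, 6 tested round spermatid and 7 elongating spermatid genes passed, with 0 of each at an unadjusted p under 0.05. At that p there were 2 of 2 endothelial and 1 of 2 tested macrophage genes, all higher in Duroc and none passing by edgeR, against 12.2% of all tested genes. The part of these measures in the CATSPER3 difference was not tested.

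Across the 21 boars, the CatSper genes fell into sets of like pattern. The sets are a description, formed from the same values, and the boars share library preparation, depth and the composition of the tissue. CATSPER1, CATSPER4, CATSPERG and CATSPERZ correlated with each other at Pearson's r of 0.55 to 0.90 over log2 CPM (6 pairs, n = 21), with 0.58 to 0.91 in the 13 Landrace and 0.49 to 0.94 in the 8 Duroc boars. The closest pair was CATSPER1 and CATSPERG (r = 0.90), a pore and an accessory gene on different chromosomes. Between these 4 genes and CATSPERB or EFCAB9, r was -0.72 to -0.36 (8 pairs), with -0.70 to -0.25 in Landrace and -0.77 to -0.53 in Duroc.

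CATSPERZ and EFCAB9, whose proteins pair on the inner side of the channel, went in opposite directions across boars (r = -0.65). CATSPERB and EFCAB9 correlated at r = 0.60, and CATSPERB and CATSPER2 at r = 0.65. CATSPER3 correlated with CATSPER1 at 0.46 over all boars, and at 0.57 within Landrace and 0.81 within Duroc. CATSPERD had no r above 0.38 in size with any other CatSper gene over the 21 boars.

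**Figure D3:**
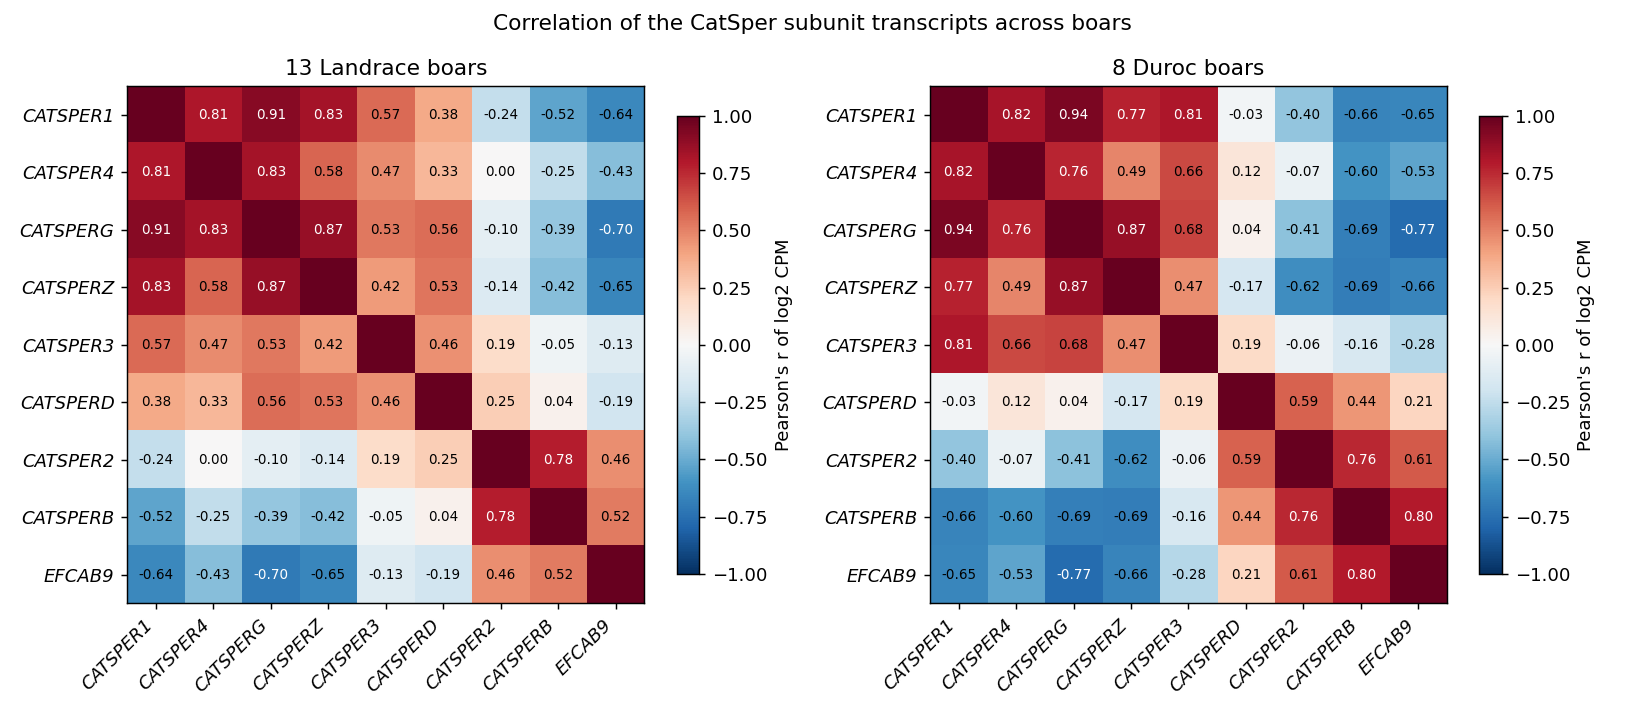
Pearson's r of log2 CPM between each pair of the 9 CatSper genes, as coloured matrices for the 13 Landrace and the 8 Duroc boars with the value in each cell (red positive, blue negative). CATSPER1, CATSPER4, CATSPERG and CATSPERZ form a block of r from 0.58 to 0.91 in Landrace and from 0.49 to 0.94 in Duroc, and their cells with CATSPERB and EFCAB9 are negative in both breeds.

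**Figure D4:**
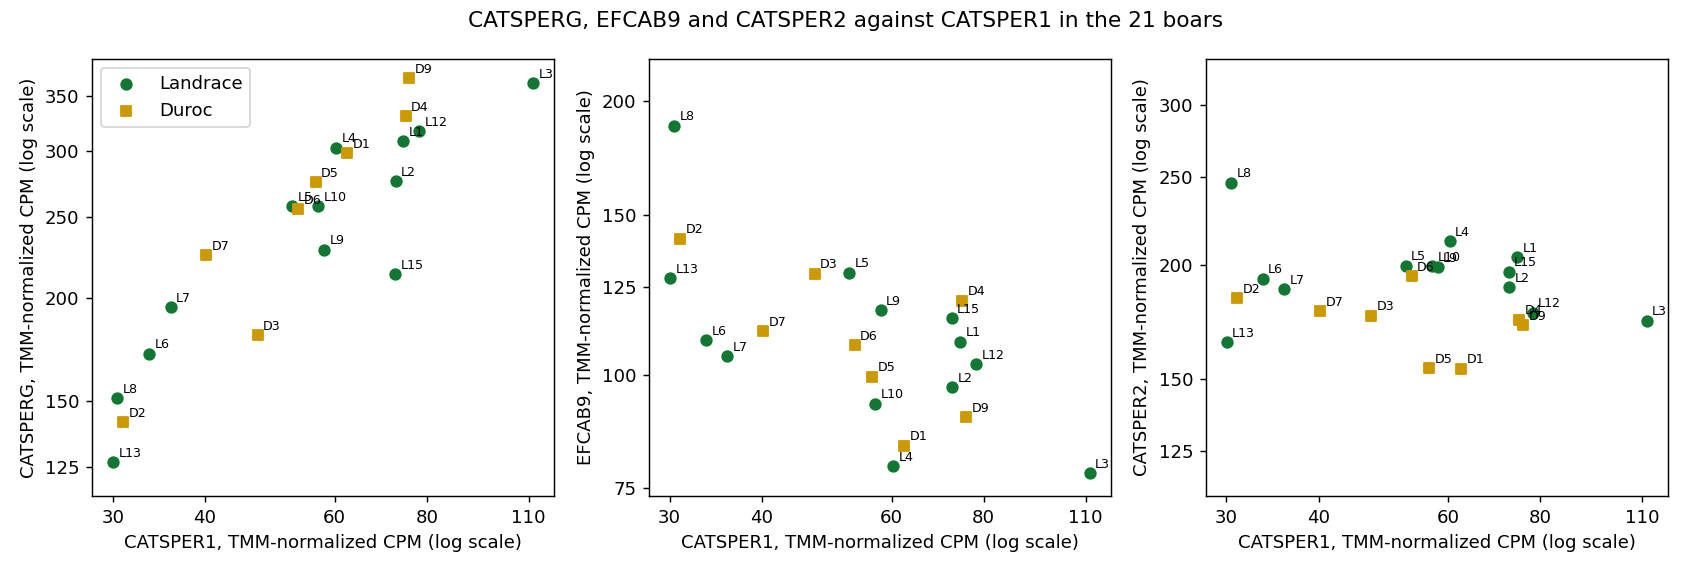
CATSPERG, EFCAB9 and CATSPER2 against CATSPER1 (TMM-normalized CPM, both axes logarithmic), 1 named point per boar, circles for Landrace and squares for Duroc. CATSPERG is higher in boars with more CATSPER1 (r = 0.90), EFCAB9 is lower (r = -0.64), and CATSPER2 shows little slope (r = -0.21).

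The same axis followed library measures. The share of non-unique alignments, which ran from 5.83 to 8.28% over the boars, correlated with CATSPERG at r = 0.87, with CATSPER1 and CATSPERZ at 0.80 each and with CATSPER4 at 0.69, and with EFCAB9 at -0.74 and CATSPERB at -0.65 (n = 21 each). L8, L13 and D2 had the 3 lowest shares, at 5.8, 6.0 and 6.0%, and were also the 3 boars with the lowest CATSPER1, at 30.4, 30.03 and 31.0 CPM. Within the 8 Duroc boars alone, where no CatSper gene passed by label, CATSPERG and the share correlated at 0.83, and within the 13 Landrace boars at 0.90. The log2 of the library's counts correlated with CATSPERG at -0.68 and with EFCAB9 at 0.51. Summed spermatocyte markers correlated with CATSPER1 at -0.76 and with CATSPERB at 0.77. Summed peritubular and smooth muscle markers correlated with CATSPERB at -0.79 and with EFCAB9 at -0.71. Their values were 0.61 with CATSPERZ, 0.60 with CATSPER1, 0.52 with CATSPERG and 0.24 with CATSPER4. Which of these measures, if any, underlies the shared axis was not tested.

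Other genes of the channel and its surroundings were taken from lists. Of 5 further genes of the complex, CATSPERE and TMEM249 were found by symbol among the counted genes, and TMEM262, SLCO6C1 and C2CD6 were not. CATSPERE, another membrane-anchored accessory subunit at chr10:17268401-17355145, was at 36.1 to 45.6 CPM in the high and 28.1 to 36.4 CPM in the low boars of contrast (i) (log2 fold change 0.31, SE 0.14, edgeR adjusted p = 0.115). TMEM249, a small membrane protein of the complex, was at 0.182 to 1.05 CPM in the high and 1.17 to 2.06 CPM in the low boars, lower in the high group (log2 fold change -1.52, SE 0.47, edgeR adjusted p = 0.0433) at a level near the filter of 1 CPM. Neither passed in the other comparisons.

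Of 12 genes that act on the channel or beside it in sperm calcium and pH signalling, 2 were lower in high than in low boars of contrast (i), 0 were higher and 10 did not pass, with a list median of 0.20 and 6 of 12 at an unadjusted p under 0.05. Over all tested genes, 15.8% were lower, 4.82% higher and 41.7% at an unadjusted p under 0.05, shares near those of the list for lower genes and unadjusted p-values. ABHD2, a lipid hydrolase that relieves inhibition of the channel when progesterone binds, was at 108 to 209 CPM in the high and 247 to 296 CPM in the low boars (log2 fold change -0.67, SE 0.19, edgeR adjusted p = 0.0311). SPACA9, which encodes a sperm protein, was at 35.0 to 62.8 CPM in the high and 69.1 to 108 CPM in the low boars (log2 fold change -0.74, SE 0.21, edgeR adjusted p = 0.0356). The sperm sodium-proton exchanger SLC9C1, the soluble adenylyl cyclase ADCY10 and the sperm potassium channel gene KCNU1 had log2 fold changes of 0.28, 0.38 and 0.35, with adjusted p-values of 0.172, 0.0861 and 0.132 from edgeR. In contrast (iii), Duroc by labels, the breed comparison and the interaction, 0 of the 12 passed by edgeR, with 1, 0, 0 and 2 of 12 at an unadjusted p under 0.05. The shares of all tested genes at that p were 19.8, 1.21, 12.2 and 15.1%.

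Among all genes tested between the breeds that have a symbol, the pair most like each CatSper gene was taken by Pearson's r over the 21 boars, as a description. CATSPER1 was most like TEF, a transcription factor gene (r = 0.97), and CLK3, a kinase gene (0.97). CATSPERG was most like the kinase gene STK11 and IZUMO4 (0.98 each), and CATSPERZ most like the autophagy gene MAP1LC3A and SDR39U1 (0.97 each). CATSPER4 was most like TMEM63C (0.94) and ARHGEF39 (0.91). SEPTIN7, a septin gene, was in the pair most like EFCAB9 (0.92). CATSPERB was most like ATXN3 (0.90), which lies 317969 bases away on the same chromosome at chr7:113611566-113645835, and PAFAH1B1 (0.89).

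The remaining genes had looser neighbours. CATSPER2 was most like FASTKD3 (0.87) and TDRD3 (0.85), at r of 0.55 and 0.58 within the 8 Duroc boars. CATSPER3 was most like TTC29 and SMARCAL1 (0.87 and 0.86), which were 0.77 and 0.64 within the 13 Landrace and 0.75 and 0.76 within the 8 Duroc boars. CATSPERD was most like CPA4 (0.72) and LIN7A (0.71), the lowest values among the 9 genes.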

How the data were processed

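Testis RNA was prepared with a stranded mRNA kit and sequenced as 100 bp single reads. Read trimming was done by the authors with Trimmomatic 0.36, alignment to the pig build Sscrofa 11.1 with STAR, and counting per Ensembl gene with HTSeq in its reverse stranded mode. The deposited values are raw read counts for each gene, 1 file to a boar, with no scaling for depth.

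Symbols came from an identifier table that named 14857 of the 25880 identifiers. The software was R 4.3.3 and edgeR 4.0.16. A gene was tested where 1 CPM or more was reached in at least 50% of a comparison's libraries (rounded up), libraries were scaled by TMM, and groups were compared by quasi-likelihood F tests with Benjamini-Hochberg adjustment over all tested genes. The SE is the size of the log2 fold change divided by the root of F. Single genes were also compared by two-sided exact permutation over boars on log2 CPM (prior count 2). The quasi-likelihood fit was first run on simulated counts.

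All 9 members were named whatever their values, other genes from lists of the channel complex, its regulation and cell type markers, and for each member the 2 most correlated genes. A gene that this rule names is not reported here. Members and lists were chosen with earlier results of these data known. Alternatives were the likelihood ratio test that the study used, DESeq2 1.42.0, relative log expression, other filters, a robust fit, other sets of boars, and leaving out each boar. The libraries held 41358671 to 125576407 counts, and the number of boars per group limits the precision of each difference. GC content was not corrected for, and exon lengths, sequences and variants were not used here.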

Additional observations from a re-analysis of the deposited data

Results flagged for a closer look

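Of 45 groups of 4 to 10 boars tested for a boar far from the rest, 2 held such a boar, where chance gives about 1 in 20 groups, or 2.25 here. Among the 4 low boars of contrast (i), L3 had the lowest CATSPERB at 144 CPM, and the other 3 lay between 224 and 237 CPM. Among the 4 low change boars of contrast (iii), L2 had the highest CATSPERD at 98.3 CPM, and the other 3 lay between 75.5 and 78.1 CPM.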

How the results depend on the processing

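In contrast (i) the count of CatSper genes called was 3 to 4 of 9 over 8 alternative fits, and 0 to 4 when each boar was left out. EFCAB9 was the gene gained with the likelihood ratio test, DESeq2, relative log expression, no filter and the robust fit, and in 1 fit of all 13 Landrace boars EFCAB9 was gained (adjusted p = 0.0463 from edgeR) and CATSPERG lost (0.0540). Over all genes, 2682 were called, from 1661 (with a filter at 5 CPM) to 3922 over the 8 alternative fits, and 1 to 3764 without each boar.

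In contrast (iii), 0 CatSper genes were called in every fit, and over all genes 0 were called, 64 by the likelihood ratio test, 116 by DESeq2, 1 with no filter and 0 to 2 without each boar. In Duroc by labels, 0 CatSper genes were called in every fit, and over all genes 0, or 0 to 2 without each boar. For the interaction, the likelihood ratio test called 3 genes, none of them a CatSper gene, against 0. Between the breeds 355 genes were called, 537 by DESeq2, 554 with no filter, 225 at 5 CPM, 230 with the 16 boars of contrast (i) and Duroc, 91 with the 5 Landrace boars without a day 0 label, and 258 to 473 without each boar. CATSPER3 was the 1 CatSper gene in each, except 0 with those 5 boars. The causes were not tested.

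Log2 fold changes near 0 changed sign. Between the breeds, the 16 boars gave 0.0872 for CATSPER1, 0.0128 for CATSPER4 and 0.12 for CATSPERZ, the 5 Landrace boars gave 0.17 for CATSPERB and 0.14 for CATSPERZ, and the 5 CPM filter gave 0.0013 for CATSPERB. Without L2 and L7, CATSPER3 in contrast (iii) was at 0.033. Without each boar, contrast (iii) ran from -0.12 to 0.0293 for CATSPER2 and from -0.37 to 0.11 for CATSPER3. Duroc by labels ran from -0.25 to 0.22 for CATSPER1, -0.13 to 0.19 for CATSPER3, -0.14 to 0.26 for CATSPERB, -0.34 to 0.0307 for CATSPERG and -0.12 to 0.25 for CATSPERZ. The breed difference ran from -0.18 to 0.0164 for CATSPER1, -0.12 to 0.0317 for CATSPER4, -0.11 to 0.0707 for CATSPERB, -0.14 to 0.0738 for CATSPERZ and -0.0699 to 0.0716 for EFCAB9. None of these was called. No paired analysis was possible because replicate numbers follow accession order and pair no boars.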
